A study of Bos taurus with 2 samples.

Results

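Major histocompatibility complex (MHC) and antigen presentation genes were followed in RNA sequencing of seminiferous tubules, where the sperm cells of the testis are made. The members were the 18 of 24616 table rows whose symbol is B2M, CD74, TAP1, TAP2 or TAPBP, or begins with BOLA and a hyphen, the prefix of the bovine leukocyte antigens. Of the 18 rows, 2 belonged to class I, 3 to the loading of peptides onto class I and 13 to class II. Tubule tissue from bull calves of 9 months and of 3 months gave 1 library each. The labels name no treatment, no breed and no animal, nor whether a library pools several animals. No difference below has a replicate check: each value compares these 2 libraries, and age cannot be told apart from the animal or animals sampled. In such bulk tissue, fewer cells of a type and less RNA per cell cannot be told apart.

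Class I molecules pair a polymorphic heavy chain with beta-2-microglobulin and show peptides from the cell's interior to cytotoxic T cells. The peptides are cut by the proteasome, pumped into the endoplasmic reticulum by the transporter TAP and handed to the empty molecule by tapasin. Class II molecules pair an alpha with a beta chain, are held empty by the invariant chain and present peptides from the endosome to helper T cells, mainly on macrophages, dendritic cells and B cells. In cattle the class II genes lie in a pair of separate blocks, with the classical DR and DQ genes in one and the DM, DO and cattle-type DY genes in the other. The testis is known for restrained immune responses, and germ cells that have entered meiosis are known for low class I on their surface.

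Depth was 29782234 counts at 9 months and 37600534 counts at 3 months. Levels are given in deposited RPKM, counts scaled by gene length and library total, which allows genes to be compared per length. They are also given in CPM scaled by TMM, by which the libraries are compared here. TMM assumes that most genes do not differ. Folds carry a 95% exact interval in square brackets that covers counting error only. Genes counted as lower or higher had a ratio of 2-fold or more whose interval did not take in 1. All others are said to be within 2-fold, whatever side of 1 they lay on. With TMM, 8875 of the 18025 genes with at least 10 counts over both libraries were within 2-fold. That is not most of them, so the assumption of TMM was not met by this measure, and the ratios depend on the scaling. Germ cell markers of meiosis and spermatids summed to 3098 CPM at 9 months and 30.4 CPM at 3 months, with 9 of 9 higher and ODF1 at 0 counts at 3 months. Sertoli cell markers, the somatic cells of the tubule, summed to 2140 and 8791 CPM at 9 and at 3 months. GATA1, with 7 counts at 9 months and 0 at 3 months, fell below 10 counts over both libraries and is not in these sums. Markers of Leydig cells, which lie outside the tubule, were present in both libraries, at 2741 CPM at 9 months and 17511 CPM at 3 months.

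Antigen presentation genes were mostly less abundant at 9 months. Of the 17 members with at least 10 counts over both libraries, 10 were lower, 0 higher and 7 within 2-fold. Among all 18025 genes that reached the same minimum, 22.8% were lower and 28% higher, and among the 13590 of them that reached 5 CPM in either library 23.9% were lower and 25.9% higher. The members had a median log2 ratio of -1.13, against 0.02 over all measured genes. They took 0.213% of the counts at 9 months [0.211 to 0.215] and 0.401% at 3 months [0.399 to 0.403]. B2M alone took 0.0621% and 0.191% of the counts in that order. The number of lower members rested on the scaling. With plain library totals 5 members were lower, while 14.7% of all measured genes were lower. These 5 were B2M, BOLA-DRA, BOLA-DQA2, BOLA-DQA5 and 1 of the 2 BOLA-DQB rows.

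**Figure D1:**
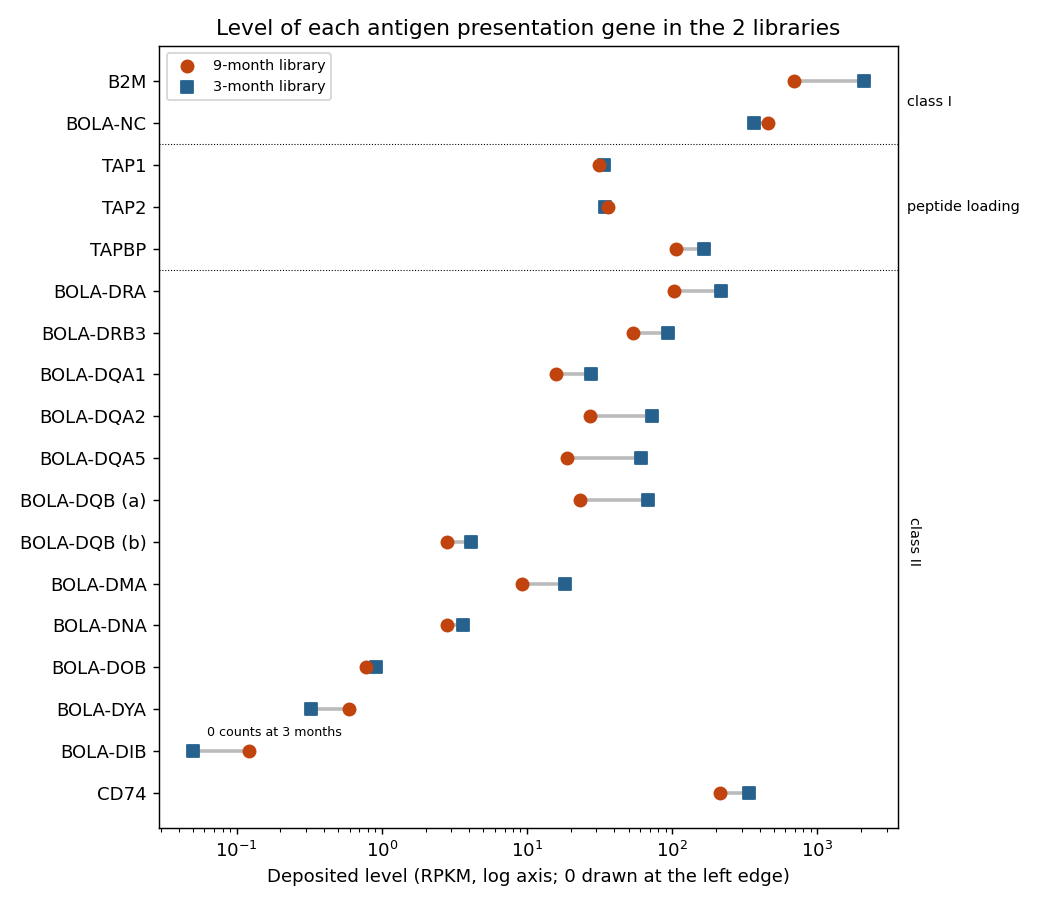
Deposited level of each of the 18 members (RPKM, log axis) in the library of 9 months (circles) and in that of 3 months (squares), with 1 library per age and no error bars. B2M has the highest level in both libraries, and BOLA-DIB the lowest, with 0 counts at 3 months, drawn at the left edge; BOLA-DQB (a) and (b) are the rows ENSBTAG00000019588 and ENSBTAG00000021077.

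B2M (ENSBTAG00000012330), which encodes beta-2-microglobulin, the shared light chain of class I molecules, was the most abundant member in both libraries. It stood at 684 RPKM at 9 months and 2099 RPKM at 3 months, from 18509 and 71669 counts. On the CPM scale these were 531 and 2230, so that B2M was 4.20-fold lower at 9 months [4.13 to 4.26]. Among all rows ranked by RPKM it came 78th at 9 months and 71st at 3 months, so its place changed little while its level fell.

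BOLA-NC (ENSBTAG00000019386), a class I heavy chain gene whose symbol stands for non-classical, did not move with B2M. Its level was 458 RPKM at 9 months and 367 RPKM at 3 months, with 14099 and 14260 counts. Scaled by TMM it had 405 and 444 CPM and was within 2-fold, at 1.10-fold lower [1.07 to 1.12], a direction that turned with plain library totals, where its log2 ratio was 0.32, and with scaling to the median or the sum of a list of housekeeping genes, called reference genes here (0.35 and 0.77). Its rank by RPKM was 136 at 9 months and 337 at 3 months. The symbol matches more than 1 gene of the RefSeq table of assembly ARS-UCD2.0, so the row cannot be tied to a single locus by name.

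B2M and the heavy chains could also be set against each other within a library, which takes the scaling out. B2M had 1.49 times the RPKM of BOLA-NC at 9 months and 5.72 times at 3 months. The ratio of counts was 1.31 [1.28 to 1.34] at 9 months and 5.03 [4.94 to 5.12] at 3 months, and these intervals lay far apart.

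Most class I heavy chain reads fell on rows without the hyphen, which the member rule leaves out and which are given here because the comparison with B2M turns on them. They are JSP.1 and 3 rows with the bare symbol BOLA. JSP.1 (ENSBTAG00000020116) had 1443 CPM at 9 months and 2110 CPM at 3 months, a ratio within 2-fold. The BOLA row ENSBTAG00000002069 had 903 and 1864 CPM in the 9-month and 3-month libraries and was 2.06-fold lower [2.04 to 2.09], but within 2-fold with plain library totals. The rows ENSBTAG00000005182, with 257 and 445 CPM, and ENSBTAG00000022590, with 195 and 173 CPM in the same order, were within 2-fold. None of the heavy chain rows therefore came near the 4.20-fold difference of B2M.

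Together with BOLA-NC these rows held 111590 counts at 9 months and 161874 at 3 months. BOLA-NC made up 12.6% of them at 9 months [12.4 to 12.8] and 8.81% at 3 months [8.67 to 8.95]. The row ENSBTAG00000002069 made up 28.2% at 9 months [27.9 to 28.4] and 37.0% at 3 months [36.8 to 37.2], and JSP.1 45.1% [44.8 to 45.4] and 41.9% [41.7 to 42.1]. The mix of heavy chains thus differed between the libraries by more than counting error. B2M had 0.254 times the summed RPKM of all heavy chain rows at 9 months and 0.681 times at 3 months. Class I genes are near-identical in sequence and polymorphic, and the treatment of reads with several alignments is not given in the sources used here, so the split among these rows is uncertain, more than their sum.

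**Figure D2:**
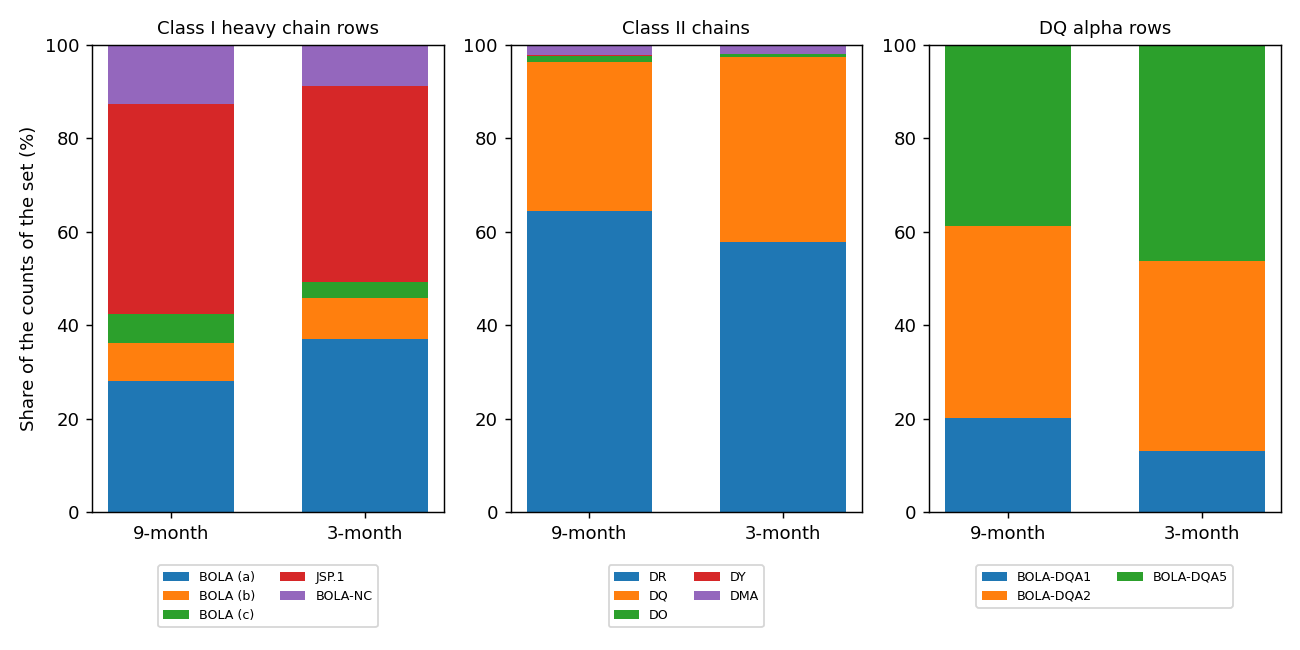
Share of counts (%) held by each row or gene family within the class I heavy chains, the class II chains and the DQ alpha rows, at 9 months (left bar of each pair) and at 3 months (right bar). BOLA-NC holds 12.6% and 8.81% of the heavy chain counts, DQ 32.0% and 39.4% of the class II chain counts, and BOLA-DQA1 20.1% and 13.2% of the DQ alpha counts; BOLA (a), (b) and (c) are the rows ENSBTAG00000002069, ENSBTAG00000005182 and ENSBTAG00000022590.

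The peptide loading genes differed less than B2M. TAP1 (ENSBTAG00000008953) and TAP2 (ENSBTAG00000003038) encode the pair of chains that form the peptide transporter. TAP1 had 78.9 CPM at 9 months and 117 CPM at 3 months, and TAP2 82.3 and 108 CPM. Both were within 2-fold, with TAP1 1.48-fold lower [1.41 to 1.56] and TAP2 1.32-fold lower [1.25 to 1.38], but TAP2 turned to log2 ratios of 0.06 with plain library totals, 0.08 with the median of reference genes and 0.50 with their sum, and TAP1 to 0.33 with the sum of reference genes.

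The transporter chains stayed close to parity per length. TAP1 had 0.862 times the RPKM of TAP2 at 9 months and 0.970 times at 3 months. Their levels were 31.0 and 36.0 RPKM at 9 months, against 33.6 and 34.7 RPKM at 3 months, for TAP1 and TAP2 in that order. TAPBP (ENSBTAG00000016828), which encodes tapasin, the chaperone that bridges TAP and the class I molecule, was more abundant than either. It had 105 RPKM at 9 months and 166 RPKM at 3 months. Scaled, its 211 and 457 CPM gave a ratio 2.16-fold lower at 9 months [2.10 to 2.22], which fell inside 2-fold with plain library totals, at a log2 ratio of -0.66. The count of TAPBP relative to TAP1 and TAP2 together was 1.31 at 9 months [1.27 to 1.36] and 2.03 at 3 months [1.97 to 2.09].

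**Figure D3:**
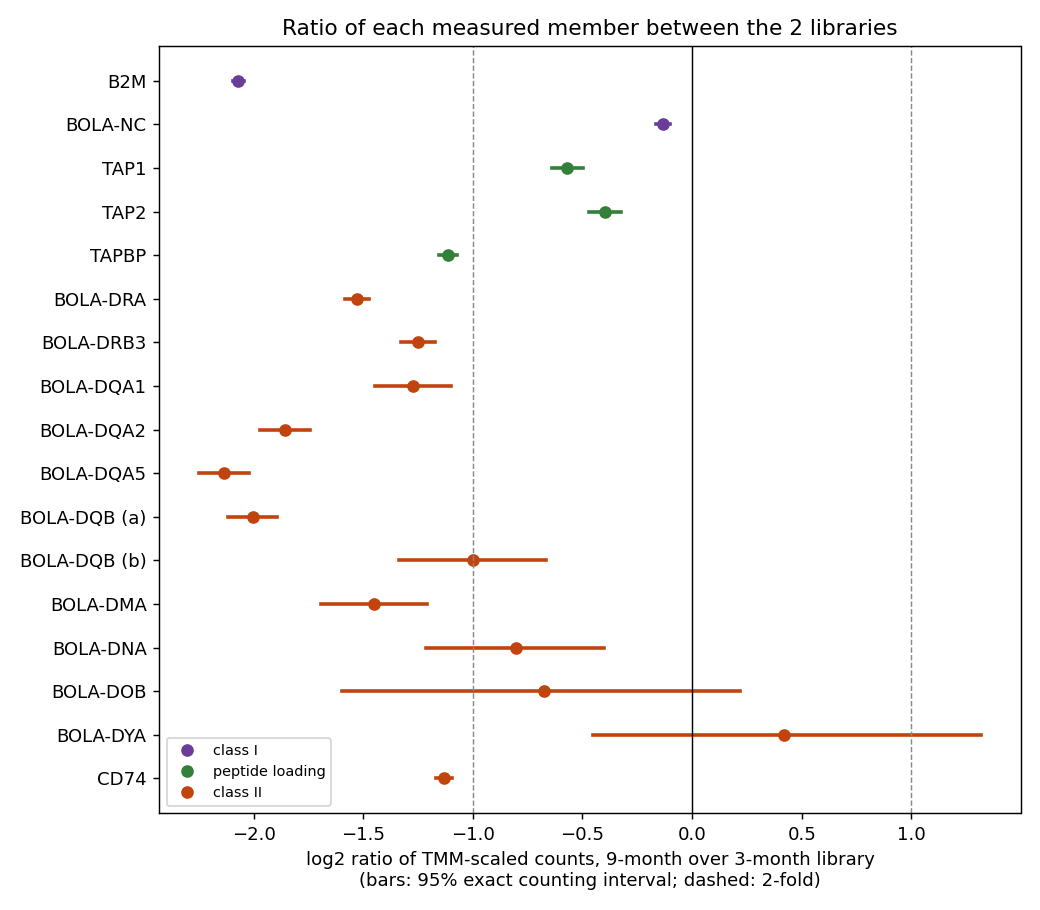
log2 ratio of TMM-scaled counts of the 9-month over the 3-month library for the 17 measured members, with 95% exact counting intervals as bars and 2-fold as dashed lines. B2M, TAPBP, CD74, BOLA-DMA, both DR rows and 4 of 5 DQ rows lie beyond 2-fold lower, BOLA-NC, TAP1 and TAP2 lie within 2-fold, and BOLA-DYA is the member on the other side of 0.

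Class II was lower in nearly all of its abundant genes with TMM. Of 12 measured class II rows, 8 were lower and 4 within 2-fold, at a list median of -1.26 in log2 ratio. Among all measured genes 22.8% were lower and 28% higher. The 4 rows within 2-fold had 19 to 115 counts at 9 months and 20 to 212 at 3 months, and thus the widest intervals. With plain library totals only BOLA-DRA, BOLA-DQA2, BOLA-DQA5 and the BOLA-DQB row ENSBTAG00000019588 stayed lower, against 14.7% of all measured genes. With the sum of reference genes only BOLA-DQA5 and that BOLA-DQB row did, at a list median of -0.36.

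The DR rows were the most abundant class II alpha and beta chains of these libraries per length. BOLA-DRA (ENSBTAG00000010645), the alpha chain, had 103 RPKM at 9 months and 216 RPKM at 3 months. Its 111 and 320 CPM made it 2.88-fold lower at 9 months [2.78 to 2.99]. BOLA-DRB3 (ENSBTAG00000013919), the main expressed DR beta chain of cattle, had 53.6 RPKM at 9 months and 93.2 RPKM at 3 months. It was 2.38-fold lower [2.26 to 2.51] from 58.2 and 138 CPM, a ratio that fell inside 2-fold with plain library totals, at a log2 value of -0.80. The alpha and beta chains differed in step only in part, since the count of DRA relative to DRB3 was 1.91 at 9 months [1.81 to 2.01] and 2.31 at 3 months [2.23 to 2.4].

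The DQ genes, the other classical class II pair, whose number varies between cattle haplotypes, included the lowest ratios of class II. Not all DQ rows were lower than the DR rows. BOLA-DQA5 (ENSBTAG00000038128), a DQ alpha chain, had 22.2 CPM at 9 months and 97.8 CPM at 3 months and was 4.39-fold lower [4.06 to 4.76]. BOLA-DQA2 (ENSBTAG00000009656), another alpha chain, had 23.7 and 85.7 CPM and was 3.62-fold lower [3.35 to 3.91]. BOLA-DQA1 (ENSBTAG00000037605) was the least abundant alpha row and differed least. It had 11.5 CPM at 9 months and 27.8 CPM at 3 months, and was 2.41-fold lower [2.14 to 2.72], or at a log2 ratio of -0.82 with plain library totals.

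The symbol BOLA-DQB, the DQ beta chain, was carried by 2 rows of very different abundance. Row ENSBTAG00000019588 had 23.5 CPM at 9 months and 94.2 CPM at 3 months and was 4.01-fold lower [3.71 to 4.34]. Row ENSBTAG00000021077 had 3.30 and 6.59 CPM and lay just inside the 2-fold line at 1.998-fold lower [1.58 to 2.53], so that upper-quartile scaling and a minimum of 1 count each moved it past the line and the number of lower members to 11. The weaker row made up 12.3% of DQ beta counts at 9 months [10.3 to 14.6] and 6.54% at 3 months [5.72 to 7.45]. Within the alpha rows BOLA-DQA1 likewise took a larger share at 9 months, 20.1% [18.3 to 21.9] against 13.2% at 3 months [12.4 to 14.0]. DQ genes are close relatives of each other, so the split among their rows is as uncertain as that among the heavy chains.

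DQ differed more than DR within the same libraries. The count of the 5 DQ rows relative to the 2 DR rows was 0.498 at 9 months [0.476 to 0.520] and 0.681 at 3 months [0.663 to 0.698]. As shares of the class II chains, DR held 64.3% at 9 months [63.3 to 65.3] and 57.9% at 3 months [57.3 to 58.5], and DQ 32.0% [31.1 to 33.0] and 39.4% [38.8 to 40.0]. The alpha to beta balance of DQ, in contrast, was 2.15 in counts at 9 months [1.98 to 2.32] and 2.10 at 3 months [2.01 to 2.19], with intervals that overlap.

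CD74 (ENSBTAG00000015228), the invariant chain, which blocks the groove of new class II molecules and steers them to the endosome, was the most abundant class II gene per length. It had 212 RPKM at 9 months and 339 RPKM at 3 months. Its 249 and 545 CPM made it 2.19-fold lower at 9 months [2.14 to 2.25], and it fell inside 2-fold with plain library totals, at a log2 ratio of -0.68. The chains it serves differed more, so that CD74 relative to the DR and DQ counts was 0.980 at 9 months [0.952 to 1.01] and 0.707 at 3 months [0.693 to 0.721].

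The DM and DO genes edit the peptides of class II molecules: DM speeds peptide exchange in the endosome and DO restrains DM. BOLA-DMA (ENSBTAG00000015730), the DM alpha chain, had 9.21 RPKM at 9 months and 18.4 RPKM at 3 months. With 5.68 and 15.5 CPM it was 2.73-fold lower [2.31 to 3.24], just inside 2-fold with plain library totals, where its log2 ratio was -0.997. Its partner chain stands in the tables as HLA-DMB (ENSBTAG00000012451), which is outside the member rule and is given because it completes the molecule. HLA-DMB had 13.4 CPM at 9 months and 35.5 CPM at 3 months and was 2.65-fold lower [2.38 to 2.96], and like BOLA-DMA within 2-fold with plain library totals. The DM chains thus had nearly the same ratio, and DMA relative to HLA-DMB was 0.425 in counts at 9 months [0.358 to 0.503] and 0.438 at 3 months [0.393 to 0.487].

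The DO genes were weak in both libraries. BOLA-DNA (ENSBTAG00000006490), an older symbol of the DO alpha chain gene BOLA-DOA in the RefSeq table, had 2.82 RPKM at 9 months and 3.60 RPKM at 3 months, from 85 and 137 counts. BOLA-DOB (ENSBTAG00000047707), the DO beta chain, had 19 counts at 9 months and 28 at 3 months. Both were within 2-fold, at 1.75-fold lower [1.32 to 2.32] for BOLA-DNA and 1.60-fold lower [0.861 to 3.03] for BOLA-DOB, and with the sum of reference genes both turned, to log2 ratios of 0.10 and 0.23. DMA relative to the DO counts was 1.90 at 9 months [1.49 to 2.44] and 3.02 at 3 months [2.53 to 3.63].

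The DY genes, class II genes of ruminants that are known mainly from dendritic cells, had few counts in both libraries. BOLA-DYA (ENSBTAG00000002581) had 29 counts at 9 months and 20 at 3 months, or 0.832 and 0.622 CPM, where 3 counts correspond to 0.0861 and 0.0933 CPM. Its ratio of 1.34 [0.731 to 2.50] was the only one above 1 with TMM, and the interval covers both directions. BOLA-DIB (ENSBTAG00000045923), an older symbol of the DY beta chain gene BOLA-DYB, had 4 counts at 9 months and 0 at 3 months and did not reach the minimum of 10 counts. No difference of BOLA-DYA was detectable at this depth with TMM, but scaling to the sum of reference genes gave a log2 ratio of 1.32 and counted it as higher. Within the class II chains the DY rows held 0.360% of counts at 9 months [0.248 to 0.505] and 0.0786% at 3 months [0.0480 to 0.121].

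Position and ratio could be compared by gene order alone, since coordinates of the build used by the submitters, UMD3.1, were not used here. In the RefSeq table of ARS-UCD2.0, 15 of the 18 members matched 1 gene, 12 by symbol and 3 by synonym, and none of the 15 overlapped another protein-coding gene. DYA, DYB, DOB, TAP2, TAP1, DMA, DOA and TAPBP stand in that order in a first block, and the DQ, DRB3 and DRA genes in a second, with 240 protein-coding genes between DOA and DQA2. The DQ alpha, DRB3 and DRA rows of the second block had log2 ratios of -1.25 or below, and the BOLA-DQB rows share a symbol and could not be placed one by one. The first block held ratios on both sides of 2-fold, with BOLA-DMA and TAPBP lower, and TAP1, TAP2, BOLA-DNA, BOLA-DOB and BOLA-DYA within 2-fold. B2M and CD74 lie outside both blocks.

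**Figure D4:**
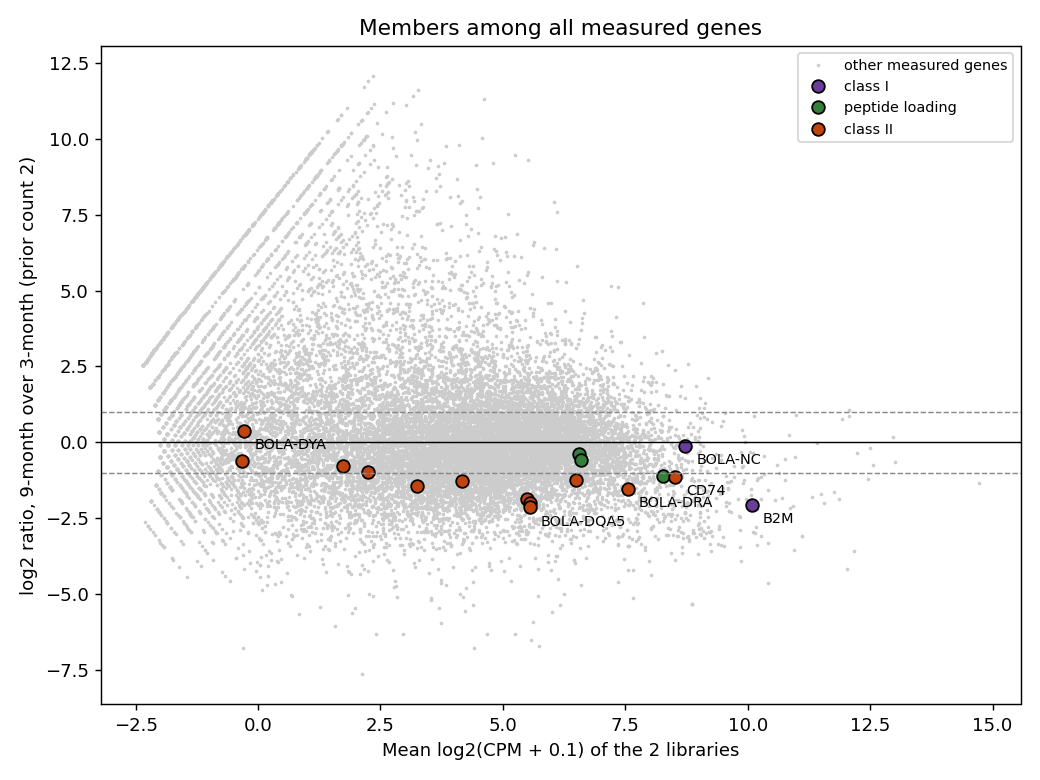
log2 ratio of the 9-month over the 3-month library (prior count 2) against mean log2(CPM + 0.1) for all 18025 measured genes (grey) and the 17 measured members (coloured by class). All members shown but BOLA-DYA lie below 0 with TMM, from weak genes at the left to B2M at the right, and BOLA-NC lies nearest to the 0 line.

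Further genes of class I peptide supply were mostly lower as well with TMM. Of 17 measured genes of that list 9 were lower, 1 higher and 7 within 2-fold, at a list median of -1.06 in log2 ratio. With plain library totals 4 were lower, and with the sum of reference genes 3 were lower and 4 higher, at a median of -0.16. Beside this and the list counts below stand the shares of all measured genes, 22.8% lower and 28% higher. With plain library totals 14.7% of all measured genes were lower. The aminopeptidases ERAP2 and ERAP1, which trim peptides in the endoplasmic reticulum, were 10.1-fold [8.77 to 11.6] and 4.27-fold [4.02 to 4.53] lower. PSME1, a subunit of the interferon-inducible proteasome activator, was 4.44-fold lower [4.22 to 4.66]. The largest difference upwards was SPPL2B, an intramembrane protease, at 3.96-fold higher [3.67 to 4.27]. Of 12 measured class I-like molecules, a list that also holds JSP.1, 7 were lower and 0 higher, with a median of -1.70. Among them FCGRT, which encodes the neonatal Fc receptor heavy chain, was 5.84-fold lower [5.41 to 6.31], HFE, a regulator of iron uptake, 5.03-fold [4.08 to 6.25] and MR1, which presents vitamin metabolites, 4.28-fold [3.49 to 5.28]. These proteins also pair with beta-2-microglobulin.

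Most genes of class II processing stood lower at 9 months too with TMM. Of 14 measured genes 8 were lower, 1 higher and 5 within 2-fold, at a list median of -1.13 in log2 ratio. With plain library totals 5 were lower, and with the sum of reference genes 3 were lower and 3 higher, at a median of -0.30. SPPL2A, a lower gene, is counted in this list and in that of class I peptide supply. The endosomal proteases CTSL, CTSB and LGMN were 11.7-fold [11.2 to 12.2], 4.29-fold [4.14 to 4.45] and 3.84-fold [3.57 to 4.13] lower. AP1M1, a clathrin adaptor subunit of protein sorting, was 5.89-fold higher [5.60 to 6.20]. Cathepsins serve lysosomes of all cells and are not particular to class II. Of 13 measured genes of co-stimulation and checkpoints 6 were lower and 1 higher, with a median of -0.98, against 22.8% and 28% of all measured genes. With plain library totals 3 of them were lower, against 14.7% of all measured genes. With the sum of reference genes 1 was lower and 3 higher. CD86, a co-stimulatory ligand of antigen-presenting cells, was 4.50-fold lower [3.60 to 5.69], while CD40, a receptor through which T cells license them, had 14.5 CPM at 9 months and 17.8 CPM at 3 months and was within 2-fold.

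The regulators of MHC transcription went both ways. Of 15 measured genes 6 were lower, 1 higher and 8 within 2-fold, at a list median of -0.66 in log2 ratio. Among all measured genes 22.8% were lower and 28% higher. With plain library totals 2 of the 15 were lower, against 14.7% of all measured genes. The list median turned to 0.24 with the sum of reference genes. CIITA, the master activator of class II genes, had 2.76 CPM at 9 months and 5.82 CPM at 3 months and was 2.11-fold lower [1.64 to 2.73], but within 2-fold with plain library totals. NLRC5, its counterpart for class I, had 11.9 and 14.2 CPM and was within 2-fold. The subunits of the RFX complex, which binds the promoters of both classes, moved apart. RFX5 was 4.05-fold higher at 9 months [3.58 to 4.60], with 38.7 CPM against 9.55 CPM at 3 months, and RFXAP was 4.19-fold lower [3.56 to 4.95], with 5.31 against 22.2 CPM.

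Interferon-gamma is the main inducer of both classes. IFNGR1, its ligand-binding receptor chain, had 24.5 CPM at 9 months and 105 CPM at 3 months and was 4.30-fold lower [3.99 to 4.64]. Its partner chain IFNGR2 was 4.01-fold lower [3.50 to 4.60]. IRF1, a transcription factor induced by interferon-gamma, had 53.2 CPM at 9 months and 117 CPM at 3 months and was 2.20-fold lower [2.09 to 2.33], but within 2-fold with plain library totals. Of 12 measured receptor and signalling genes 5 were lower and 0 higher, with a median of -0.89 that turned to 0.01 with the sum of reference genes. The kinase genes JAK1 and JAK2 of this list were within 2-fold, with ratios above 1, at 1.06 [1.03 to 1.10] and 1.21 [1.10 to 1.32]. Of 25 measured interferon-induced genes 17 were lower, 0 higher and 8 within 2-fold, at a list median of -1.31 in log2 ratio, and 10 were lower with plain library totals. MX1, an antiviral GTPase, was 6.29-fold lower [5.56 to 7.14] and ISG15, a ubiquitin-like modifier, 4.80-fold [3.93 to 5.90]. At the other end of that list ADAR was within 2-fold, at 1.08-fold lower [1.03 to 1.14].

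**Figure D5:**
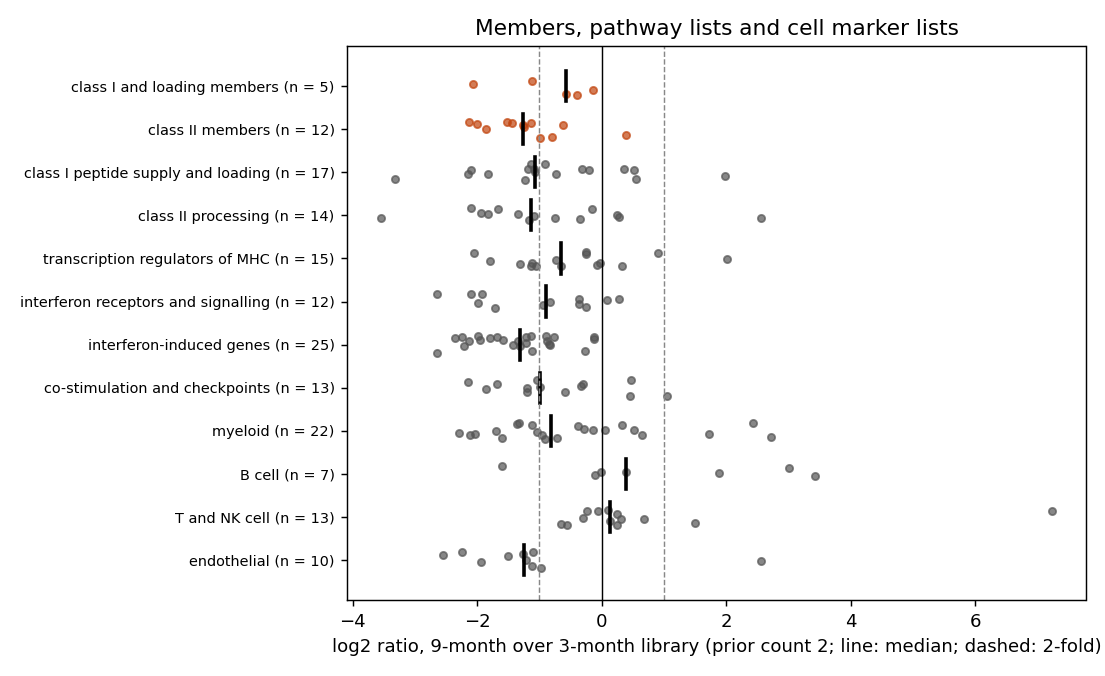
log2 ratio of the 9-month over the 3-month library (prior count 2) for each measured gene of the members and of 10 lists of pathway genes and cell markers, with the median of each as a black line and 2-fold as dashed lines. The medians of the class II members (-1.26), the interferon-induced genes (-1.31) and the endothelial markers (-1.24) lie beyond 2-fold lower. So do those of class I peptide supply and loading (-1.06) and of class II processing (-1.13). The medians of the B cell (0.39) and the T and NK cell markers (0.13) lie above 0.

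Markers of the cells that carry class II differed in both directions. Of 22 measured myeloid markers 9 were lower, 3 higher and 10 within 2-fold, at a list median of -0.81 in log2 ratio that turned to 0.08 with the sum of reference genes. With plain library totals 5 were lower, and none of the measured markers was at 0 counts in either library. They summed to 378 CPM at 9 months and 719 CPM at 3 months. The complement gene C1QB of macrophages was 4.93-fold lower [4.64 to 5.24], AIF1, a macrophage actin-binding protein, 3.30-fold higher [2.99 to 3.65], and PTPRC, the common leukocyte antigen, was within 2-fold at 37.2 CPM against 40.8 CPM at 3 months. B cell markers were weak, with a sum of 20.0 CPM at 9 months and 10.3 CPM at 3 months over 7 measured genes, of which 3 were higher and 1 lower. T and NK cell markers summed to 107 and 97.8 CPM, with 2 of 13 higher and 0 lower, and 5 of the 13 had a log2 ratio below 0. The co-stimulatory receptor gene CD28 had 474 counts at 9 months and 1 at 3 months. Its 13.6 and 0.0311 CPM differ by more than the sums do, so the larger sum at 9 months rests on CD28.

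Class II was then set against these markers within each library, where the scaling plays no part. The counts of the class II chains relative to all myeloid markers were 0.697 at 9 months [0.678 to 0.716] and 1.10 at 3 months [1.08 to 1.12]. Relative to the B cell markers, with only 699 and 335 counts, the class II chain counts were 13.1 [12.1 to 14.2] and 76.0 [68.2 to 84.9]. Relative to PTPRC they were 7.07 [6.67 to 7.50] and 19.4 [18.3 to 20.5], and relative to the macrophage receptor gene CSF1R 14.7 [13.6 to 16.0] and 17.6 [16.7 to 18.5]. Relative to the 3 chains of C1q the order was the opposite, with 2.51 at 9 months [2.42 to 2.61] and 2.002 at 3 months [1.96 to 2.05]. DQ alone had 0.804 [0.766 to 0.845] and 0.789 [0.769 to 0.810] counts per C1q count, intervals that overlap. Whether class II was lower per myeloid transcript therefore depended on the marker chosen, and the part of these cells in the class II difference was not tested.

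B2M is made by nearly all nucleated cells, and the markers of several somatic cell types were lower as well. Of 10 measured endothelial markers 8 were lower and 1 higher, with summed levels of 143 CPM at 9 months and 227 CPM at 3 months, and 4 were lower with plain library totals. Leydig cell markers were lower in 5 of 6 and Sertoli cell markers in 6 of 11, with 1 and 2 higher. Peritubular myoid markers were lower in 2 (0 with plain library totals) and higher in 2 of 6, with 699 CPM at 9 months and 451 CPM at 3 months. Among all measured genes 22.8% were lower and 28% higher. Relative to the summed Sertoli markers B2M had 0.248 counts per count at 9 months [0.244 to 0.252] and 0.254 at 3 months [0.252 to 0.256]. That sum rests largely on CLU, with 47349 of 74547 counts at 9 months and 151886 of 282593 at 3 months. Single Sertoli markers ranged from AMH, 34.8-fold lower [32.9 to 36.9], to CLDN11, 49.6-fold higher [43.2 to 57.2]. Relative to the myeloid markers B2M had 1.41 [1.38 to 1.44] and 3.103 [3.06 to 3.15], and relative to the Leydig markers 0.194 [0.191 to 0.197] and 0.127 [0.126 to 0.128]. The part of each cell type, the germ cells included, in the difference of B2M was not tested.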

How the data were processed

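RNA was extracted from flash-frozen tubule pieces, per the labels' protocols. Trimmomatic 0.33, STAR 2.4.0 and the build UMD3.1 are named in the submitters' processing notes. The counting program, annotation release, strand setting, unique molecular tags and treatment of multiply aligned reads were not given in the sources used here. The deposited tables have no header. A deposited column holds raw counts per Ensembl gene, another the gene length in bases. The deposited RPKM column equals the count scaled by that length and by the table's total, to within 0.000496%, so RPKM carries no TMM scaling. Columns of other samples numbered 0.

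TMM factors, from genes with at least 10 counts over both libraries, were 1.17 for the 9-month and 0.855 for the 3-month library (edgeR 4.0.16, R 4.3.3). CPM is relative to this effective size. Log2 ratios carry a prior count of 2. Folds have 95% exact conditional binomial intervals and shares 95% Clopper-Pearson intervals. These cover counting error only, as amplified reads are not independent molecules. With 1 library per age no test was made. Code was tested on simulated data (Python 3.11.15, scipy 1.17.1).

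All members are named. From each list up to 3 genes with the lowest and 3 with the highest ratio among genes of at least 5 CPM could be named, and NLRC5, CIITA, RFX5, IRF1, PTPRC and IFNGR1 in any case, apart from an item that is not reported here. C1q chains and CSF1R as denominators were chosen after their values were seen. CLU was named in addition for its share of the Sertoli counts, and SPPL2A because the class I supply and class II processing lists share it. Members and lists were chosen with earlier results of these data known. Alternatives were other scalings (DESeq2 1.42.0 size factors among them), other minimum counts and prior counts, summed rows and rows outside the rule.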

Additional observations from a re-analysis of the deposited data

How the results depend on the processing

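Of 45 recomputed counts and medians, 27 stayed within 1.5 times the reported count or within the counting interval of the reported median, and 18 did not. With plain library totals 5 members were lower, and the median log2 ratios were -0.65 for class I, -0.81 for class II and -0.12 for peptide loading. With the sum of reference genes 3 members were lower and 1, BOLA-DYA, higher, with medians of -0.20, -0.36 and 0.33 in that order. With the median of reference genes, added after seeing the data, 5 were lower, with medians of -0.62, -0.78 and -0.087. Upper-quartile scaling gave -1.20 for class I and -0.67 for peptide loading. The median of all genes was 0.02 with TMM, 0.46 with plain totals, 0.90 with the sum and 0.49 with the median of reference genes, and -0.08 with upper-quartile scaling. Relative to that median, class II stood at -1.28 with TMM, -1.27 with plain totals and -1.26 with the sum of reference genes. A change of scaling shifts all log2 ratios by nearly the same amount, so this closeness was fixed in advance and is no check. The class I median of -1.10 covers only B2M and BOLA-NC. BOLA-NC alone gave -0.13, and with JSP.1 and the rows of symbol BOLA, added after seeing the data, the median was -0.67. Class II rows summed without CD74 gave -1.59. DESeq2 size factors and other minimum and prior counts changed no count by over 1.5 times. No paired analysis was possible because each age has 1 library, and for the same reason no library could be left out. Low counts limit the DO and DY genes.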
